A study of Mus musculus with 18 samples.

Results

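The comparison took the 6 arrays labelled FatK1 out of the 18 arrays of the series, 3 of cells that received an shRNA (a short hairpin RNA that lowers a chosen transcript) to Foxd3 and 3 of untreated cells. The arrays were chosen by their labels alone. Of the 45281 probes of the array, 43 were left out because at least 1 signal was printed in more than 7 significant digits, which left 45238. The labels gave every FatK1 array the same source, the colon of mice number 1, aged 17 weeks, on a C57Bl/6 background. The genotype, shared by both arms, joined a Cre transgene written as Fapbl-Cre, whose promoter the labels name no further, with the alleles Apc2lox14/+ and tet-KrasLSL-G12D/+. Per the labels, tumours were dissociated, cells that carry the surface protein CDCP1 were taken with antibody-coated beads as tumour-inducing cells, and they were kept with Dox. The shFoxd3 arm had the shRNA for 24 h and the other arm had none, so no control shRNA entered this comparison. Nothing in the labels tells whether an arm's 3 arrays came from separate cultures, so the p-values cover array-to-array spread that could be technical.

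Foxd3 is a forkhead transcription factor known from pluripotent cells and the neural crest. The transcripts that varied most in this comparison were those of skeletal muscle, whose force comes from thick myosin filaments pulling on thin actin filaments. Release of calcium from the sarcoplasmic reticulum starts the pull, troponin and tropomyosin pass the calcium signal on to actin, and creatine kinase and glycolysis supply the ATP. Slow fibres and fast fibres carry different isoforms of most of these proteins.

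Signals are given as deposited, with the background already subtracted, so that a probe near background may lie below 0. Changes are differences of normalised log2 signals, shFoxd3 minus untreated, with the moderated standard error of limma. The mean signal of an array was 238, 213 and 218 on the shFoxd3 arrays, against 189, 199.6 and 188 on the untreated arrays. At signals well above background, normalisation therefore tended to shift changes downward. Increases became smaller and decreases larger in size than the deposited signals alone would give. A probe was tested when its detection p-value was below 0.05 on at least 3 of the 6 arrays, and called when its adjusted p was below 0.05.

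The targeted gene was not measurable. The Foxd3 probe had signals of 6.80, -6.42 and -10.3 on the shFoxd3 arrays, against 7.37, 3.30 and -5.89 on the untreated arrays. It was detected on 0 of the 6 arrays, and the arms overlapped. The change was -0.12 (exact permutation p = 0.5, two-sided, n = 3 arrays per arm, where 0.1 is the smallest p possible). A knockdown was not detectable at this signal.

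The labelled cell type was checked against its markers. Of 19 epithelial genes on the array, 2 were detected on all 6 arrays and 9 on none. Epcam, an epithelial adhesion protein, had signals of -0.12, 3.61 and 3.07 on the shFoxd3 arrays, against 2.46, -4.25 and 2.52 on the untreated arrays. The 4 probes of Cdcp1, the gene of the sorting antigen, were detected on 0, 0, 2 and 0 of the 6 arrays. By contrast, 14 of 17 brown fat genes and 20 of 21 adipocyte genes were detected on all 6 arrays, so the markers went against the label, and no cell type is assigned here in its place.

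Single arrays stood apart from the labels. Xist, the non-coding RNA of the inactive X chromosome, had signals of 1469.5, 1161 and 1122 on the shFoxd3 arrays, against 5.39, 1174 and 13.5 on the untreated arrays. Eif2s3y, a gene of the Y chromosome, had signals of 1.20, 4.04 and -11.1 on the shFoxd3 arrays, against 872, -4.95 and 794 on the untreated arrays. Untreated array 2 thus matched the shFoxd3 arrays, and the other two untreated arrays did not, although all 6 carry the same mouse label. Between the shFoxd3 arrays and untreated arrays 1 and 3, the arm and this difference cannot be told apart.

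In the whole comparison 1 of 19326 probes was called (0.00517%), and 1890 had an unadjusted p below 0.05 (9.78%). It was Actc1, which rose, the actin of heart muscle that skeletal muscle also makes during development. Actc1 had signals of 340.4, 536 and 318 on the shFoxd3 arrays, against 1.83, 15.5 and 7.57 on the untreated arrays. All shFoxd3 arrays lay above all untreated arrays. The change was 4.03 ± 0.26 (moderated SE, n = 3 arrays per arm, limma adjusted p = 0.00188). A second Actc1 probe had signals of 70.1, 110.1 and 66.7 on the shFoxd3 arrays, against 4.95, -0.91 and 4.70 on the untreated arrays, with a change of 2.03 ± 0.23 that did not pass (adjusted p = 0.0604). The lower arm was near background, so the sizes depend on the offset: with 50 in place of 16 the changes were 2.95 and 1.18. Leaving out each array in turn kept the call of the first probe (adjusted p 0.000554 to 0.0304), while leaving out shFoxd3 arrays 1 and 2 together ended it (3.80, adjusted p = 0.063). With only probes detected on all 6 arrays, 15348 in number, 0 were called by limma, with 1511 at an unadjusted p below 0.05. The first Actc1 probe, detected on 4 arrays, was not among them.

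Actc1 was spread over the arrays unlike the main actin of adult skeletal muscle, Acta1. Acta1 had signals of 24037, 23693 and 7955 on the shFoxd3 arrays, against 11.8, 7828 and 516 on the untreated arrays. The third shFoxd3 array and untreated array 2 were nearly level for Acta1 and stood at 318 and 15.5 for Actc1. The Acta1 change was 4.79 ± 1.62 (adjusted p = 0.417), larger in size than that of Actc1 but with arms that overlapped after normalisation. Relative to the mean of the 6 FatK5 arrays, which carry muscle transcripts throughout, Actc1 stood at 2%, 3.14% and 1.87% on the shFoxd3 arrays, against 0.0108%, 0.0912% and 0.0444% on the untreated arrays.

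The bases before the transcription start of these 2 actin genes are shown because the genes differed in how their levels followed the arrays. They are RefSeq sequences of GRCm38.p6, 250 bases up to the start, on the minus strand at chr2:114052876-114053125 for Actc1 and chr8:123894776-123895025 for Acta1. Capitals mark the CArG box, the motif bound by serum response factor, a regulator of muscle actin genes. It was searched as CCWWWWWWGG, where W is A or T, with no mismatch allowed, so near matches are not marked.
Actc1: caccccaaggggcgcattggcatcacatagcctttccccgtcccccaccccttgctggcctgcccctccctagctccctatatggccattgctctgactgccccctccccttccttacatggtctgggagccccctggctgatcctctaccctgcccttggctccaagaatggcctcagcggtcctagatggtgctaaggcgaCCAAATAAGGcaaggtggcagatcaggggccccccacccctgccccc
Acta1: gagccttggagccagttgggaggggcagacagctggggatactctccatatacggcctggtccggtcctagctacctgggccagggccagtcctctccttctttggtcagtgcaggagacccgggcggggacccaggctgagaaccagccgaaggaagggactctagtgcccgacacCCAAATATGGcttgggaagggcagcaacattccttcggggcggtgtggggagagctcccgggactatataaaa
Each window held 1 exact match to the CArG box, which began 47 bases before the start in Actc1 and 73 bases before it in Acta1. The windows of Mybpc2, Pvalb and Ckm, searched as well, held 0. Of 32851 RefSeq windows of this length, 1.47% held a CArG box. The letters CAGCTG, a form of the E-box bound by myogenic factors, occurred 1 time in the Acta1 window and 0 times in that of Actc1, and in 13.0% of all windows. Both motifs read the same on either strand, and they did not overlap. A match describes the letters and not a site in use.

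Muscle transcripts varied widely between the arrays of a single arm. Of 85 genes in 5 muscle lists, of which Actc1 is not a member, 80 were on the array and 71 were tested. Their median SD within arms was 1.37 on the log2 scale (range 0.22 to 3.10), and 70 of the 71 changes were positive, with a median of 2.32. Over all 10407 tested genes the median change was -0.02 and 46.7% were positive. None of the 71 was called, and in 21 of them all shFoxd3 arrays lay above all untreated arrays, where 7% of all tested genes did. With the muscle level of each array, made from these same genes, as a covariate, the changes of many muscle genes described below turned negative. Those values ranged from -0.0028 for Acta1 to -3.27 for Sln. In bulk RNA, fewer muscle cells and less muscle RNA per cell cannot be told apart.

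The arrays fell in a common order in these genes. Over 64 muscle genes with a FatK5 mean of at least 500, the median gene stood at 14.1%, 14.0% and 3.22% of the FatK5 mean on the shFoxd3 arrays, against 0.10%, 4.99% and 0.32% on the untreated arrays. The first 2 shFoxd3 arrays were highest, untreated array 2 came next, then shFoxd3 array 3, and untreated arrays 1 and 3 were lowest. Across the 71 genes, each array's log2 levels correlated with the FatK5 mean at r = 0.85, 0.86 and 0.79 on the shFoxd3 arrays, against 0.15, 0.68 and 0.45 on the untreated arrays, given as a description across genes of the same array platform. The untreated array with the most muscle transcripts, array 2, was also the untreated array with Xist.

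**Figure D1:**
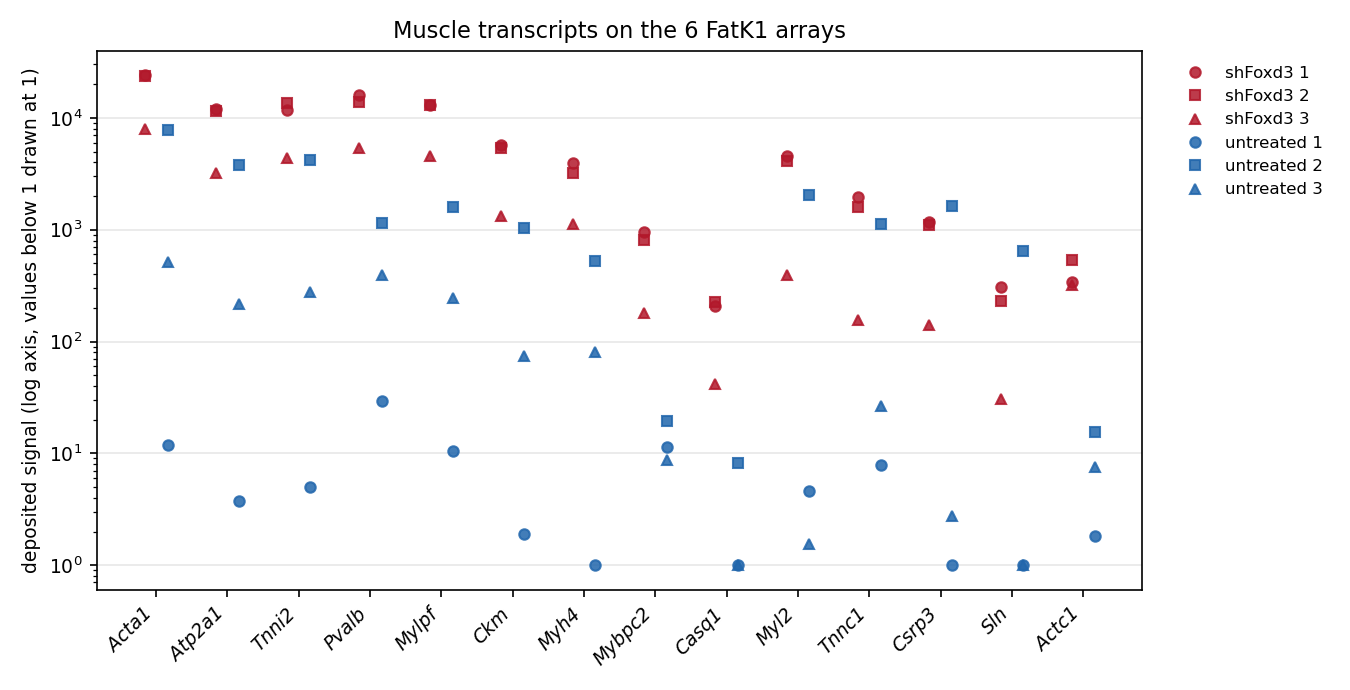
Deposited signals (log axis, values below 1 drawn at 1) of 14 muscle genes on the 6 FatK1 arrays, with shFoxd3 arrays in red on the left of each gene and untreated arrays in blue on the right, 1 point per array. For Acta1 the third shFoxd3 array (7955) and untreated array 2 (7828) coincide, while for Actc1 all shFoxd3 arrays (318 to 536) stand above all untreated arrays (1.83 to 15.5).

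Of 14 tested thick filament genes, 14 changes were positive (median 3.60), and 5 had higher arms without overlap, where 7% of all tested genes did. Mybpc2, the fast isoform of myosin binding protein C, had signals of 946, 807 and 179 on the shFoxd3 arrays, against 11.4, 19.6 and 8.75 on the untreated arrays. Its change was 4.24 ± 0.52 (adjusted p = 0.0718), the smallest adjusted p of the 71 genes. Untreated array 2 was close to background for Mybpc2 although it held other muscle transcripts. Myl1, a fast myosin light chain, had signals of 27692, 30491 and 14871 on the shFoxd3 arrays, against 2214, 7434 and 2772 on the untreated arrays, and its change was 2.24 ± 0.37 (adjusted p = 0.21). Myl2, the regulatory light chain of slow and heart muscle, had signals of 4564, 4094 and 397 on the shFoxd3 arrays, against 4.59, 2047 and 1.55 on the untreated arrays. Its SD within arms, 3.10, was the widest of the 71 genes, and untreated array 2 lay above shFoxd3 array 3. Myl3, another slow light chain, followed the same order, with 2406, 2148 and 166 on the shFoxd3 arrays, against 1.95, 762 and -3.17 on the untreated arrays.

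The change of thin filament and Z disc genes was positive in all 22 tested genes (median 2.79), and 2 had arms without overlap, a share near the 7% of all tested genes. Tnni2, the fast inhibitory troponin, had signals of 11852, 13579.7 and 4419 on the shFoxd3 arrays, against 4.96, 4183 and 276 on the untreated arrays (4.66 ± 1.52, adjusted p = 0.397). Tnnc1, the slow calcium-binding troponin, had 1977, 1585 and 156 on the shFoxd3 arrays, against 7.90, 1129.7 and 26.5 on the untreated arrays (2.86 ± 1.42, adjusted p = 0.557). In both, untreated array 2 was above or beside the third shFoxd3 array, and the SD within arms was 2.78 and 2.60. Tnnt1, the slow tropomyosin-binding troponin, Tpm2, a tropomyosin, Tcap, which caps titin, and Csrp3, a Z disc protein, had SDs within arms of 2.66, 2.58, 2.52 and 2.95. Actn3, the fast Z disc actinin, was one of those without overlap, with 2009, 1789 and 464 on the shFoxd3 arrays, against 5.64, 372 and 38.3 on the untreated arrays (3.91 ± 0.94, adjusted p = 0.29).

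Calcium handling genes were positive in 13 of 13, with a median of 1.47, and 3 had higher arms without overlap, where 7% of all tested genes did. Pvalb, a calcium buffer of fast fibres, had signals of 15938, 13978 and 5377 on the shFoxd3 arrays, against 29.5, 1152 and 389.7 on the untreated arrays (4.98 ± 1.01, adjusted p = 0.275). Casq1, the calcium store protein of fast fibres, had 207, 226 and 42.0 on the shFoxd3 arrays and was at background on the untreated arrays, at -6.08, 8.14 and -7.11 (2.76 ± 0.50, adjusted p = 0.237). Pvalb was highest on array 2 among the untreated arrays, and Casq1 was not above background there. Atp2a1, the calcium pump of fast fibres, overlapped between the arms, with 12018, 11481 and 3192 on the shFoxd3 arrays, against 3.76, 3807 and 214 on the untreated arrays. Sln, sarcolipin, an inhibitor of that pump, was highest on an untreated array, with 310.3, 231 and 30.6 on the shFoxd3 arrays, against -4.07, 643 and 0.83 on the untreated arrays (1.14 ± 1.33, adjusted p = 0.814).

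Energy supply held the most genes without overlap, 9 of 14, where 7% of all tested genes had higher arms without overlap. Of the 14, 13 were positive, with a median of 2.52. Pgam2, the muscle form of a glycolytic mutase, had signals of 1403, 1499.6 and 370.2 on the shFoxd3 arrays, against 1.71, 146 and 23.8 on the untreated arrays (4.22 ± 0.73, adjusted p = 0.221). Ckm, the muscle creatine kinase, had 5695, 5413 and 1324 on the shFoxd3 arrays, against 1.89, 1032 and 74.8 on the untreated arrays (4.69 ± 1.22, adjusted p = 0.322). The lowest shFoxd3 array was close to the highest untreated array for Ckm. Cox6a2, a subunit of cytochrome oxidase made in striated muscle, overlapped, with 5267, 4407 and 1134 on the shFoxd3 arrays, against 6.99, 2374 and 62.4 on the untreated arrays. Of 8 tested myogenic regulators and related genes, 8 were positive with a median of 0.85. Higher arms without overlap were seen in 2 of them, where 7% of all tested genes had such arms. The 2 were Myf6, a myogenic transcription factor, and Chrna1, a subunit of the muscle acetylcholine receptor, both at low signals. Myf6 had 167, 147 and 47.7 on the shFoxd3 arrays, against 7.67, 41.5 and 6.03 on the untreated arrays (1.87 ± 0.45, adjusted p = 0.278).

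The third shFoxd3 array and untreated array 2 held similar amounts of muscle transcripts, so they can be set side by side, as single arrays without a test. The shFoxd3 array was the higher for 22 of the 71 genes, and the median difference was -0.32. Some genes of slow fibres were among the lowest, with 397 against 2047 for Myl2, 156 against 1129.7 for Tnnc1, 162 against 869 for Tnnt1 and 30.6 against 643 for Sln. Some genes of fast fibres were among the highest, with 179 against 19.6 for Mybpc2, 5377 against 1152 for Pvalb, 4550.2 against 1609 for Mylpf, a fast light chain, and 370.2 against 146 for Pgam2. Other genes of fast fibres were lower or level on the shFoxd3 array, with 3192 against 3807 for Atp2a1 (-0.39), and differences of -0.90 for the fast myosin Myh1, -0.17 for the fast troponin Tnnt3 and -0.04 for Tnni2. Mb, myoglobin, an oxygen store of oxidative fibres, was among the highest, with 518 against 235. Fast-fibre genes thus lay on both sides. In percent of the FatK5 mean, Tnnc1 stood at 97.4%, 78.0% and 7.68% on the shFoxd3 arrays, against 0.39%, 55.6% and 1.30% on the untreated arrays. Mybpc2 stood at 9.80%, 8.36% and 1.86% on the shFoxd3 arrays, against 0.12%, 0.20% and 0.09% on the untreated arrays. The genes were picked from both ends of the ranking after it had been seen. The highest signals on the FatK1 arrays were 26821 to 33887, a range that the FatK5 mean of the brightest muscle genes reaches, and whether the percentages meet a ceiling was not tested.

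**Figure D2:**
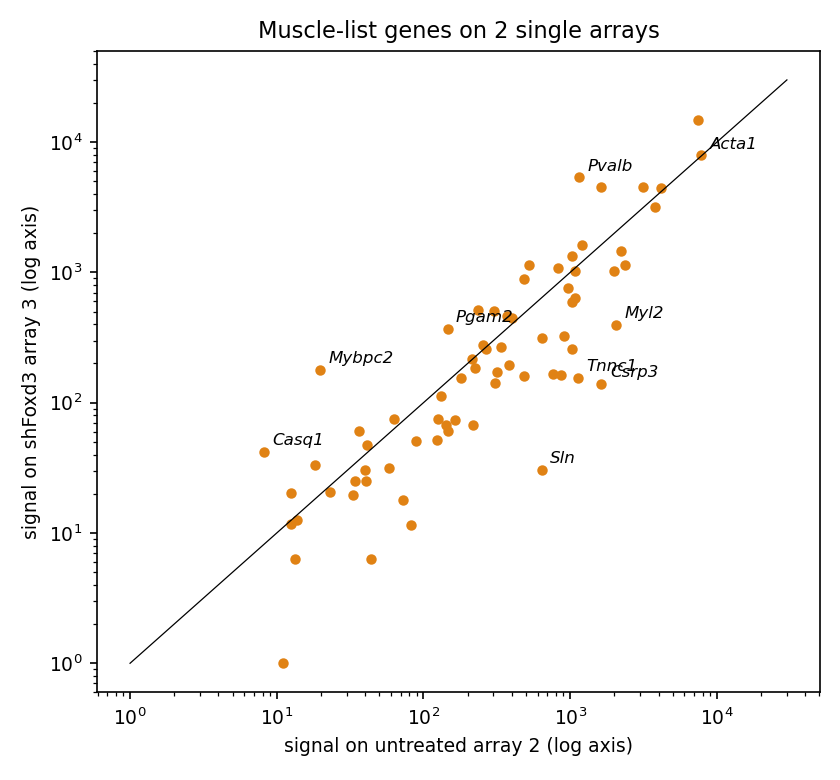
Signals of the 71 tested muscle genes on shFoxd3 array 3 (vertical, log axis) and untreated array 2 (horizontal, log axis), with values below 1 drawn at 1 and a line of equal signal. Sln, Csrp3, Tnnc1 and Myl2 lie below the line, Acta1 lies on it and Mybpc2, Casq1, Pvalb and Pgam2 lie above it.

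To set the muscle signal aside, a muscle-high class was formed without any FatK1 array, from probes whose mean log2 signal on FatK5 arrays was at least 3 above that on FatK7 arrays. It held 837 probes, of which 776 were tested here, and 65 of the 71 muscle genes. It is not a pure muscle class, since Xist and 8 of 17 fibroblast and matrix genes also met the rule. Nor did it take in every muscle transcript, since Myh7, Myod1 and the Csrp3 probe described above fell outside, as did dimmer Xist probes. Probes outside the class are therefore not free of either kind. At the edge, Htra1, Osbpl6 and Hspa12b lay just outside at 2.98, 2.99 and barely under the cut, and Gstp2, Fap and Homer1 just inside, the first pair barely over the cut and Homer1 at 3.01.

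The class was frequent among the most variable probes. Of the 50 tested probes with the widest SD within arms, 42 were muscle-high (84%), and of the first 100, 77 were. The share was 64.5% of the first 200, 44% of the first 500 and 27.2% of the first 1000. The median SD was 0.37 in the class and 0.22 in the other 18550 probes. Muscle-high probes were positive in 86.7%, with a median change of 0.50, and 218 had a change of at least 1 while 0 had one of -1 or less. Among the other probes 43.3% were positive, the median was -0.04, and 70 had a change of at least 1 and 48 of -1 or less. Arms without overlap were seen in 26.4% of muscle-high probes in the higher direction and 0.515% in the lower, against 5.46% and 8.92% of the other probes, and 6.3% and 8.58% of all tested probes.

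**Figure D3:**
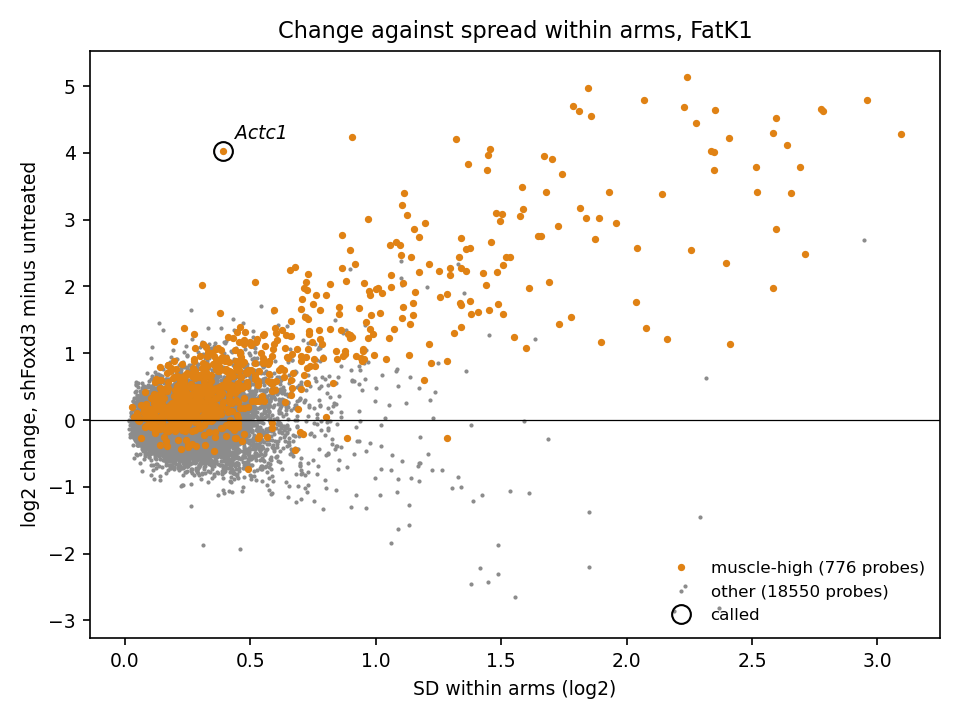
Change (log2, shFoxd3 minus untreated) against SD within arms (log2) for the 19326 tested probes, with 776 muscle-high probes in orange, 18550 other probes in grey and the 1 called probe circled. Nearly all probes with a change above 2.5 are muscle-high and most of them have wide spreads, while Actc1 joins a change of 4.03 with a narrow spread.

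Outside the class, 0 of 18550 probes were called (0%) by limma, and 1556 had an unadjusted p below 0.05 (8.39%). The count rested on untreated array 2 and on shFoxd3 array 3. Without untreated array 2, 121 probes were called (0.626%), 30 of them outside the class. That fit set shFoxd3 arrays with Xist against untreated arrays with Y-linked transcripts, so the arm and this difference cannot be told apart. Xist probes were among its calls, also outside the class (changes of 2.15 and 1.42). Without shFoxd3 array 3, 50 were called (0.259%), 9 of them outside. Without shFoxd3 array 1, 2 were called (0.0103%), and without shFoxd3 arrays 1 and 2 together, a choice made with the data seen, 2 were (0.0103%), both lower and outside the class. With 1 spread shared by all 18 arrays 158 were called (0.818%), 141 higher and 17 lower, with 61 outside the class, 44 higher and 17 lower. With the muscle level of each array as a covariate 85 were called (0.44%), 61 outside the class, 39 higher and 22 lower. A term for Xist against Y-linked transcripts, which leaves the shFoxd3 arrays against untreated array 2 alone, gave 658 (3.4%), the replicate block 96 (0.497%), the series matrix 117 (0.605%), a robust prior 8 (0.0414%) and no filter 14 of 45238 (0.0309%). The sets of 61 from the shared spread and the covariate shared 5 probes, 8.2% of each. Which probes were called outside the class thus depended on the model and on the arrays in it.

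Untreated array 2 stood apart from the other arrays outside the class as well. On the first principal component of those probes (40.2% of the variance) it had a score of 48.7, and the other arrays had scores of -20.5 to 5.01. It lay at least 1 above every other array in 85 probes and at least 1 below in 101, where no other array exceeded 10 in either direction. Neutrophil transcripts were among those high on it. S100a8, a calcium-binding protein of neutrophils, had signals of 264, 1013 and 802 on the shFoxd3 arrays, against 1817, 11653 and 1216 on the untreated arrays (-2.46 ± 0.76, adjusted p = 0.375). Over 12 neutrophil genes on the array the summed signal was 496.5, 1645 and 1320 on the shFoxd3 arrays, against 2899, 18530 and 1801 on the untreated arrays. Of the 7 tested, 0 were positive, with a median change of -1.12, and 2 had lower arms without overlap, where 8.48% of all tested genes did. The shFoxd3 arrays were below all 3 untreated arrays in this sum, also with array 2 set aside.

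The next genes, which set untreated array 2 apart, were picked with their values in view. Stfa1, a stefin of myeloid cells in mouse, had signals of 20.9, 38.3 and 25.4 on the shFoxd3 arrays, against 45.2, 2276 and 43.2 on the untreated arrays. Nr1d1, a repressor in the circadian clock, had 70.5, 55.1 and 30.0 on the shFoxd3 arrays, against 26.8, 395 and 42.1 on the untreated arrays. Without that array the change of Nr1d1 was 0.19, against -0.86 with it. Both genes were high on 1 array of the untreated arm alone. Scd1, a desaturase of fatty acid synthesis, had 4078, 3947 and 5589.8 on the shFoxd3 arrays, against 1761, 179 and 1217 on the untreated arrays (2.34 ± 0.73, adjusted p = 0.38). G0s2, an inhibitor of lipolysis, had 3714, 4092 and 3373 on the shFoxd3 arrays, against 3376, 274 and 2409 on the untreated arrays. Scd1 was lower on every untreated array and G0s2 mainly on array 2. Ucp1, which uncouples respiration to make heat in brown fat, had 13475, 10608 and 15217 on the shFoxd3 arrays, against 10904, 4238 and 7479 on the untreated arrays (0.58 ± 0.28, adjusted p = 0.541).

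**Figure D4:**
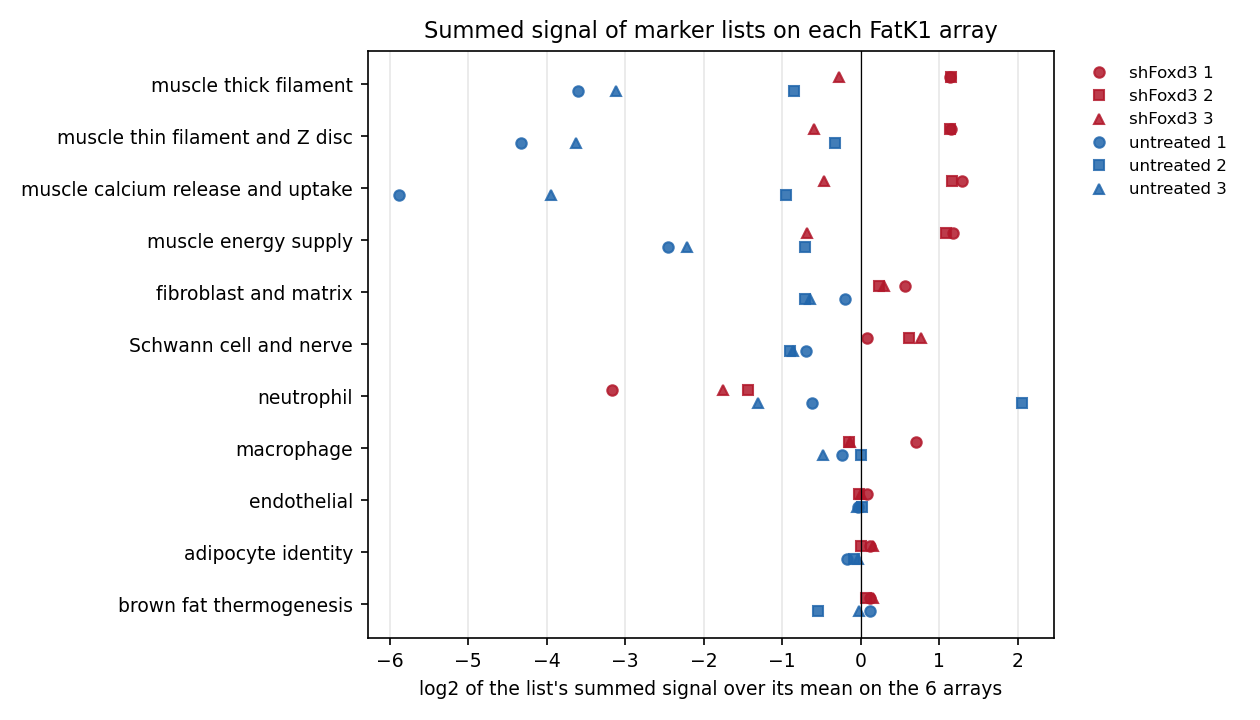
Summed deposited signal of 11 marker lists on each FatK1 array, as log2 of the sum over its mean on the 6 arrays, with shFoxd3 arrays (red) drawn above untreated arrays (blue) in each row. Muscle lists spread over several log2 units, with shFoxd3 array 3 and untreated array 2 next to each other. Fibroblast, nerve and adipocyte sums are higher on all shFoxd3 arrays, and the neutrophil sum is highest on untreated array 2. The sums are not normalised, and the mean signal was higher on every shFoxd3 array than on any untreated array.

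Genes of fibroblasts and the extracellular matrix differed in one direction. The change was positive in all 17 tested genes (median 0.93), and 0 passed the test. Higher arms without overlap were seen in 12 of them, where 7% of all tested genes had such arms. Of the 17, 8 were in the muscle-high class. Outside the muscle-high class 9 remained, with 6 without overlap and a median of 0.91, where 5.46% of all probes there had higher arms without overlap. The summed signal was 38210, 30180 and 31770 on the shFoxd3 arrays, against 22370, 15790 and 16550 on the untreated arrays. The order of these sums was not that of muscle: shFoxd3 array 3 and untreated array 2, near each other in muscle, stood at 31770 and 15790. Such sums are not normalised, and the mean signal was higher on every shFoxd3 array than on any untreated array. The adipocyte sums were higher on all shFoxd3 arrays too, at 91430 to 102200 against 81240 to 89240.

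Dcn, decorin, a small proteoglycan that binds collagen, had signals of 11064, 9424 and 10207 on the shFoxd3 arrays, against 6013, 6147 and 5412 on the untreated arrays. The arms were well apart and the SD within arms was 0.05, but the change of 0.55 ± 0.09 did not pass (adjusted p = 0.191). A second Dcn probe had a change of 0.60 ± 0.11 (adjusted p = 0.241), while the 2 dimmer probes had changes of 0.62 ± 0.34 and -0.41 ± 0.33. Lum, lumican, a proteoglycan of the same family, had 563, 364 and 438 on the shFoxd3 arrays, against 238, 99.5 and 153 on the untreated arrays (1.34 ± 0.31, adjusted p = 0.278). Loxl1, which crosslinks elastin, had 701, 472 and 479.8 on the shFoxd3 arrays, against 325, 251 and 189 on the untreated arrays (0.93 ± 0.21, adjusted p = 0.278). Of the fibrillar collagens, Col1a1 had 2034, 1810.4 and 1499 on the shFoxd3 arrays, against 1036, 361 and 609 on the untreated arrays (1.31 ± 0.34, adjusted p = 0.325). Col3a1 had 3382, 2438 and 2453 on the shFoxd3 arrays, against 1468, 367 and 739.8 on the untreated arrays (1.65 ± 0.44, adjusted p = 0.325). These Col1a1 and Col3a1 probes were in the muscle-high class. Fn1, fibronectin, also had arms without overlap, at 244, 209 and 281 against 152, 74.0 and 68.7 (1.16 ± 0.30, adjusted p = 0.322). In the collagens and lumican the untreated arm was itself uneven, with array 1 the highest of the untreated arrays and array 2 the lowest.

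The summed signal of nerve sheath genes was also higher on every shFoxd3 array, with 1880, 2743 and 3047, against 1105, 955.6 and 977.2 on the untreated arrays, and did not follow the muscle order. Mbp, myelin basic protein, had signals of 312, 634 and 916 on the shFoxd3 arrays, against 126, 88.2 and 143 on the untreated arrays (2.07 ± 0.41, adjusted p = 0.271). It was highest on shFoxd3 array 3, the one with least muscle, although another tested Mbp probe had a change of 0.03 ± 0.18 and the remaining probes were not tested. Pmp22, a myelin protein also made by fibroblasts, had 1399, 1918 and 1946 on the shFoxd3 arrays, against 867, 779.5 and 732 on the untreated arrays (0.88 ± 0.18, adjusted p = 0.275). Of the 6 tested genes of this list, 6 were positive, with a median of 0.47, and 0 passed. Higher arms without overlap were seen in 4 of them, where 7% of all tested genes had such arms. Pmp22 and the Mbp probe with the larger change were in the muscle-high class. Outside the class 4 genes of the list remained, with 2 without overlap and a median of 0.34.

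Transcripts that respond to glucocorticoids or rise in muscle wasting leaned the other way. Of 15 tested, 1 was positive, the median was -0.50, 6 had lower arms without overlap and 0 passed, where 8.48% of all genes had lower arms without overlap. Fkbp5, a chaperone partner of the glucocorticoid receptor, had signals of 37.8, 31.7 and 71.8 on the shFoxd3 arrays, against 123, 224 and 193 on the untreated arrays. Each shFoxd3 array was below each untreated array, and the change was -1.94 ± 0.29 (adjusted p = 0.162, and 0.0145 with the spread shared over 18 arrays). Mt1, a metallothionein, had 9329.9, 9699 and 11760.3 on the shFoxd3 arrays, against 12181, 14447 and 11726 on the untreated arrays (-0.50 ± 0.12, adjusted p = 0.302). Its arms met in the deposited signals and were apart only after normalisation.

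Immune response lists had a few lower members. Of 16 interferon genes, 6 were positive, the median was -0.21 and 4 had lower arms without overlap, where 8.48% of all tested genes did. Psmb8, an inducible subunit of the immunoproteasome, had signals of 291, 203 and 265 on the shFoxd3 arrays, against 336, 439 and 360.0 on the untreated arrays (-0.79 ± 0.15, adjusted p = 0.271, and 0.0224 with the shared spread). Psmb9, its partner subunit, had a change of -0.62 ± 0.16 (adjusted p = 0.322). Of 12 NF-kappaB genes, 5 were positive, the median was -0.30 and 3 had lower arms without overlap, where again 8.48% of all tested genes did, among them Icam1, an adhesion molecule. Icam1 had 56.8, 43.7 and 74.6 on the shFoxd3 arrays, against 159, 114 and 92.1 on the untreated arrays (-1.12 ± 0.25, adjusted p = 0.278). Macrophage genes were positive in 11 of 14, with a median of 0.16, and 2 had higher arms without overlap, where 7% of all tested genes did, the scavenger receptor Cd163 (0.53 ± 0.19) and the growth factor receptor Csf1r (0.48 ± 0.17, adjusted p = 0.434).

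**Figure D5:**
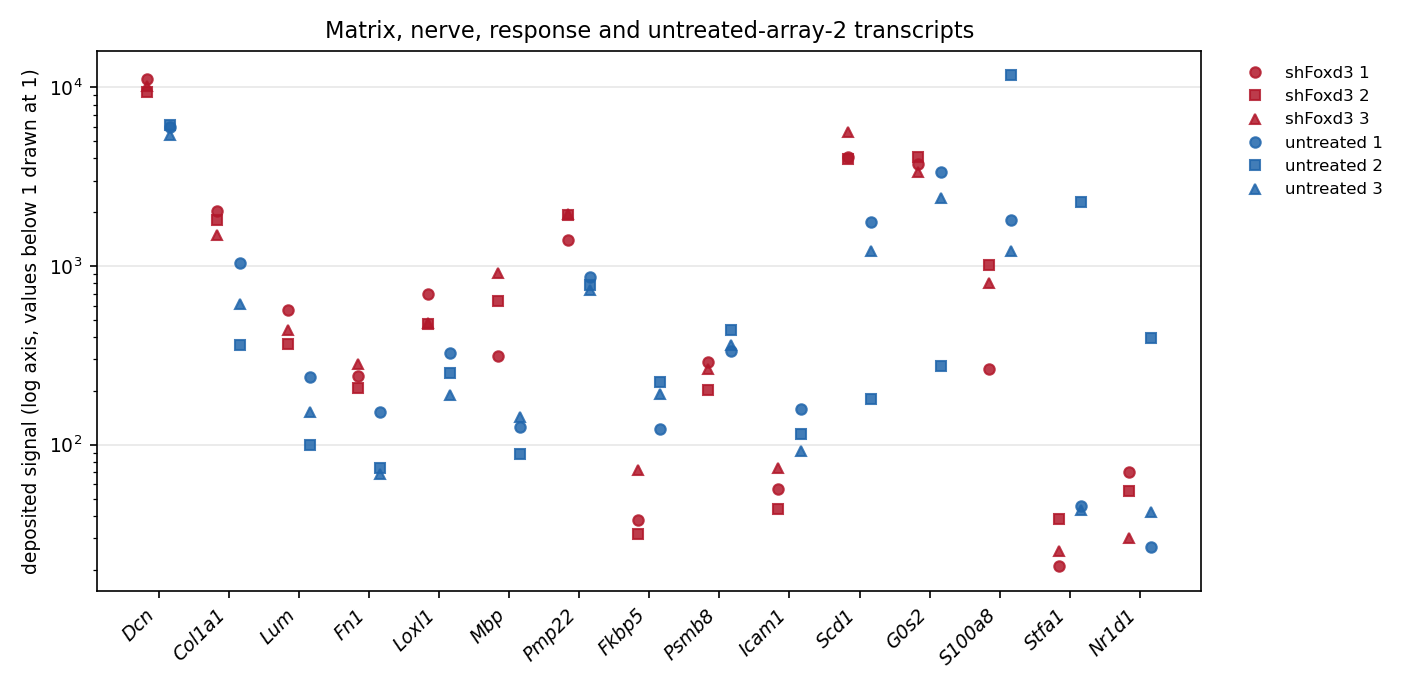
Deposited signals (log axis) of 15 genes outside the muscle lists on the 6 FatK1 arrays, with shFoxd3 arrays in red on the left of each gene and untreated arrays in blue on the right, 1 point per array. From Dcn to Pmp22 all shFoxd3 arrays are higher, from Fkbp5 to Icam1 all are lower, and from Scd1 onward untreated array 2 lies far from the other untreated arrays.

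Fat cell genes had median changes near 0. Of 20 tested adipocyte genes 5 were positive, with a median of -0.11, and of 16 brown fat genes 6 were, with a median of -0.12. Adipoq, adiponectin, a hormone of fat cells, had signals of 12290.4, 11576 and 11299.9 on the shFoxd3 arrays, against 9936, 9353 and 8707 on the untreated arrays, which normalisation reduced to a change of 0.10 ± 0.08 (adjusted p = 0.734). Slc27a2, a fatty acid transporter and acyl-CoA synthetase, was the brown fat gene with the smallest p, with 1376, 1558 and 2191 on the shFoxd3 arrays, against 2028, 2941 and 2377 on the untreated arrays (-0.77 ± 0.20, adjusted p = 0.325). Glycolytic genes had a median of 0.07 in 17 tested, and 3 had higher arms without overlap, where 7% of all tested genes did. Gapdh, a glycolytic dehydrogenase, had 10082, 8627 and 7613 on the shFoxd3 arrays, against 6008, 4656 and 5182 on the untreated arrays (0.47 ± 0.12, adjusted p = 0.322), and Ldha, which makes lactate, had a change of 0.46 ± 0.14. Both are also abundant on FatK5 arrays, at 21930 and 17410, and on FatK7 arrays, at 8516 and 9119.

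Signalling and growth lists showed no called gene. Fos, an immediate early transcription factor, had signals of 1153, 317 and 80.7 on the shFoxd3 arrays, against 108, 79.9 and 36.9 on the untreated arrays (1.91 ± 0.75, adjusted p = 0.469), and the shFoxd3 arrays differed widely among themselves. Of 12 genes of MAPK output, the pathway downstream of Ras, 7 were positive with a median of 0.15, and Dusp4 and Dusp6, phosphatases that limit the pathway, had changes of 0.84 ± 0.29 and 0.64 ± 0.27 (adjusted p = 0.422 and 0.491) with overlapping arms. Of 10 Wnt targets and feedback genes 6 were positive with a median of 0.08, and Sfrp2, a secreted Wnt binding protein, had 101, 73.2 and 62.4 on the shFoxd3 arrays, against 49.7, 21.9 and 27.8 on the untreated arrays (0.85 ± 0.26, adjusted p = 0.361). Medians were 0.21 for 8 mitosis genes, 0.05 for 14 DNA replication genes and -0.11 for 13 p53 targets.

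When the muscle-high probes were left out before normalisation, 3 probes passed. They were the provisional 1190007I07Rik (-1.82 ± 0.21), Trappc12, a subunit of a vesicle-tethering complex, and Lrmda, a gene of melanocyte differentiation in human, all at adjusted p = 0.0483 and all named because they passed there. Lrmda had signals of 96.0, 93.1 and 137 on the shFoxd3 arrays, against 18, 23.1 and 23.2 on the untreated arrays, with a change of 1.64 ± 0.21 in the main comparison (adjusted p = 0.0974). The Trappc12 probe had 69.5, 52.6 and 45.2 on the shFoxd3 arrays, against 3.76, 5.73 and 8.02 on the untreated arrays (1.46 ± 0.17, adjusted p = 0.0604). Its other tested probe went the opposite way, with 50.1, 30.1 and 47.0 on the shFoxd3 arrays, against 63.2, 95.2 and 89.3 on the untreated arrays (-0.98 ± 0.20, adjusted p = 0.275), so no direction is given for the gene. Cpa3 and Cma1, proteases of mast cells that were picked with their values in view, had changes of 1.21 ± 0.21 and 1.08 ± 0.25 (adjusted p = 0.221 and 0.278), each with arms without overlap.

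The effect of the shRNA in FatK1 was tested against that in the other mouse labels. Against FatK5, 0 of 22316 probes differed (0%) by limma, with 1283 at an unadjusted p below 0.05. Against FatK7, 44 of 22577 differed (0.195%), and 37 of 21794 outside the muscle-high class (0.17%), of which 24 were more negative and 13 more positive in FatK1. The filter took detection on at least 3 arrays of both labels together, so these counts include probes at background in FatK1. Among 12421 probes detected on every array of both labels, 22 differed, 20 of them outside the class. The 6 widest of those differences included Saa1, Saa2 and Saa3, acute phase proteins that were detected on 1, 0 and 1 of the FatK1 arrays and entered the test only through FatK7, so that no effect in FatK1 could be measured for them. Orm2, another acute phase protein that the liver secretes, had signals of 15.7, 28.1 and 44.2 on the shFoxd3 arrays of FatK1, against 18.1, 36.7 and 23.4 on its untreated arrays, and its arms overlapped (-0.03). In FatK7 it had 9744, 8979 and 14128 on the shFoxd3 arrays, against 2524, 2804 and 2308 on the untreated arrays (2.36).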

How the data were processed

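RNA of 18 samples was hybridised to Illumina mouse bead arrays, of which the 6 FatK1 arrays, 3 per arm, were compared. The deposited signal intensity was taken as background-subtracted, since 23.2% to 25.5% of FatK1 signals lay below 0, and each had a deposited detection p-value. The software was not given in the sources used here. The deposited series matrix held rescaled intensities and served as an alternative.

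All 18 arrays were background-corrected, quantile normalised and log2-transformed by neqc (offset 16) in limma 3.58.1 and R 4.3.3, after 43 probes with long-printed signals were left out. Of the others, 19326 probes (10407 genes) passed detection (p-value below 0.05) on 3 or more of the 6 arrays and were fitted with lmFit and eBayes (trended prior), two-sided, with Benjamini-Hochberg adjustment over the 19326 and a threshold of 0.05. The spread came from the 6 arrays alone. Each array detected 19166 to 19993 probes, and precision was limited by the few arrays. Symbols came from the platform annotation, in which 34885 of 45281 probes had 1 symbol, 18 several and 10378 none. A gene was represented by its brightest tested probe. Effects in FatK1 and in FatK5 or FatK7 were compared in 4-group fits.

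The comparison, the 37 gene lists, the class and the tests were chosen with earlier results of these data known. Named were Foxd3, Cdcp1, sex-linked genes, the 12 muscle genes with the widest spread, 2 per list by smallest p where none was called, and 6 per difference between labels. The naming rule's limit of 12 called genes in each direction outside the class found none. Actc1 fell outside the rule and was named as the one call; other genes outside it illustrate a list or are marked as chosen afterwards. Alternatives changed the background correction, normalisation, offset, filter, spread and covariates, and left out arrays. The fit was tested on simulated data. Figures used Python 3.11.15, pandas 2.3.3 and matplotlib 3.10.9.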

Additional observations from a re-analysis of the deposited data

Results flagged for a closer look

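The fitted effects of the shRNA in FatK1 and FatK7 were set against each other with limma (n = 3 arrays per group), and the 6 widest called differences outside the muscle-high class are given here. For 3 of them the probe also passed the detection filter within FatK1, 2 of these at low signal there. The difference, FatK1 minus FatK7, was -3.29 ± 0.52 for the metallothionein Mt2 (adjusted p = 0.0236), -2.99 ± 0.55 for the chemokine Cxcl9 (adjusted p = 0.0452) and -2.39 ± 0.38 for the acute phase protein Orm2 (adjusted p = 0.0236). Their changes were -0.78, -0.55 and -0.03 in FatK1, against 2.52, 2.44 and 2.36 in FatK7. Cxcl9 had signals of 250.5, 200.4 and 137 on the shFoxd3 arrays of FatK1, against 307, 140.3 and 339.8 on its untreated arrays. Mt2 was detected on 4 of the 6 FatK1 arrays, and Cxcl9 and Orm2 on 6. Only 1 of the 4 was an shFoxd3 array, where Mt2 had signals of 6.76, 7.98 and 42.9. Orm2 had signals of 15.7 to 44.2 on the FatK1 arrays. For Mt2 and Orm2, low signal thus limits the change in FatK1 and the difference from FatK7.

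Saa1, Saa2 and Saa3, serum amyloid A proteins, were detected on 1, 0 and 1 of the 6 FatK1 arrays and passed the filter only through FatK7, where they are high. Their fitted differences of -3.96, -3.61 and -2.41 are therefore set against FatK1 values at background and do not show that the effects differ. In FatK7, Saa1 had signals of 11786, 19107 and 20316.5 on the shFoxd3 arrays, against 1282, 1587 and 1264 on the untreated arrays.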

How the results depend on the processing

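Actc1 was called under each of these alternatives that tested its probe, except without shFoxd3 arrays 1 and 2 (3.80, adjusted p = 0.063). It was the 1 call under no background correction, normalisation of the 6 arrays alone, an offset of 50 and removal of off-grid detection p-values, each with 1 probe called and 0 outside the muscle-high class. Probes called in all and outside the class numbered 117 and 24 from the series matrix, 14 and 6 without a filter, 158 and 61 with the spread of 18 arrays, 8 and 4 with a robust prior, and 85 and 61 with the muscle covariate. They numbered 0 and 0 among probes detected on every array. Leaving out 1 array gave 1 to 121 calls, and 0 to 30 outside the class. The 121 and 30 came without untreated array 2, where the arm and the Xist difference cannot be told apart. Without shFoxd3 arrays 1 and 2, chosen after seeing the data, 2 and 2 were called, which leaves 1 array in that arm, assumed to vary like the untreated arrays. Leaving out muscle-high probes before normalisation gave 3 outside the class, and cuts of 2 and 4 gave 0. A term for Xist against Y-linked transcripts gave 658 and 584, which compares the shFoxd3 arrays with untreated array 2 alone. The replicate block gave 96 and 27. The deviations of same-numbered arrays correlated at -0.02, 0.21 and 0.20. The best-correlated partner had the same number for replicates 2 and 3 but not for replicate 1. The main fit did not take the numbers as pairs, and these values do not settle whether the arrays were paired.

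FatK1 differed from FatK7 in 22 probes among those detected on every array, and in 34 to 57 under the other alternatives, against 44. FatK5 gave 0 under each. Foxd3 changed by -0.14 to -0.12.

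Of 106 followed probes of printed or named genes, 84 changed sign under no alternative run. Not among the 106, the printed Myh1 had -0.10 with the muscle covariate. The second tested Mbp probe, also not among them, had -0.27 with the Xist term and -0.32 with the muscle covariate. With the Xist term the change became -0.0889 for Xist, -0.43 for Eif2s3x, -0.84 for Kdm6a, -0.25 for Myl2, -1.70 for Csrp3, -0.39 for Tnnt1, -0.71 for Tnnc1, -0.25 for Tcap, -2.36 for Sln, -0.15 for Des and -0.0548 for Alas2. With the muscle covariate it became -0.28 for Eif2s3x, -0.91 for Kdm6a, -1.35 for Myl2, -0.0028 for Acta1, -2.67 for Csrp3, -0.12 for Atp2a1, -1.13 for Myl3, -1.46 for Tnnt1, -0.63 for Cox6a2, -1.96 for Tnnc1, -0.29 for Tpm2, -1.23 for Tcap, -3.27 for Sln, -0.71 for Des, -0.0626 for Klf5, 0.11 for Cxcl1, -0.0525 for Hspb8, -0.42 for Hspb6 and -0.18 for Aldh1a1. The series matrix gave -0.0801 for Eif2s3x. Kdm6a had -0.16 without untreated array 1, -0.059 without untreated array 3, 0.62 without untreated array 2 and -0.0355 without shFoxd3 arrays 1 and 2, and Sln had -0.66 there. Nr1d1 had -1.499 to 0.19 when 1 array was left out, positive only without untreated array 2. The muscle level was made from the muscle list genes, so negative values among those genes under that covariate follow in part from its construction. The cause of these changes was otherwise not tested. Low signal over background limits Foxd3, Cdcp1 and the epithelial genes, the lower arm of Actc1, and Mt2 and Orm2 in FatK1.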
